A study of Mus musculus with 16 samples.

Results

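The genes described here encode laminins, nidogens and perlecan, the proteins other than collagen that build the follicular basal lamina. They were chosen by gene symbol from both count tables: the alpha chains Lama1, Lama2, Lama4 and Lama5, the beta chains Lamb1 and Lamb2, the gamma chain Lamc1, the nidogens Nid1 and Nid2, and Hspg2, which encodes perlecan. These are 10 of 57010 genes, and all 10 passed the filter on low counts in each comparison. Mouse granulosa cells (mGCs) were sequenced in 2 experiments. In the first, mGCs were isolated after ovulation induction from 5 female ICR mice with sham surgery (Con group) and 5 that carried endometrium of donor mice sutured into the abdominal cavity, a model of endometriosis (EM group). Surgery was at 6 weeks of age. Recipients of endometrium were given 17β-estradiol every other day and then a washout period, and the methods do not say whether sham mice were given it, so graft and hormone cannot be told apart. In the second, mGCs of 6 mice of the EM model were divided for culture in medium (DMEM/F12) that held 5% serum. PBS alone was added for 3 libraries (PBS group) and 14,15-EET at 100 nM for the other 3 (EET group). The labels give 24 h for the treatment, and the methods text and a legend of the study differ on whether another 24 h of culture came before it. 14,15-EET is an epoxide of arachidonic acid, and the study asked what it changes in mGCs of the model. How the 6 mice map to the 3 libraries of each group is not given, and no cells of sham mice were cultured.

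A basal lamina separates the granulosa cells of a follicle from the theca and its vessels. Laminins are trimers of an alpha, a beta and a gamma chain, assembled inside the cell and joined into a sheet outside it. Nidogens tie the laminin sheet to the collagen IV network, and perlecan is a large heparan sulfate proteoglycan that binds both and holds growth factors. Cells grip the sheet through integrins and through dystroglycan, whose sugar chain binds laminin. In growing follicles granulosa cells are a known source of laminin, whereas Lama2 and Lama4 are best known from muscle, stroma and vessels.

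Coordinates in the count tables are those of GRCm39, the build that the submitters' processing notes name. The 4 genes on which the results turn most lie apart in the genome. Hspg2 (ENSMUSG00000028763) spans chr4:137196080-137297941 on the plus strand and Lama2 (ENSMUSG00000019899) chr10:26856032-27495754 on the minus strand. Lamb1 (ENSMUSG00000002900) spans chr12:31315233-31379643 and Nid2 (ENSMUSG00000021806) chr14:19801333-19861855, both on the plus strand. Lama4 shares chromosome 10 with Lama2, and the other genes each lie on a chromosome of their own.

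The libraries held 14229123 to 15999234 counts in the fresh groups and 21384686 to 29482826 in the cultured groups. Mitochondrial transcripts took 6.76% to 11.1% of counts in Con libraries and 8.09% to 11.1% in 4 EM libraries, but 21.8% in EM-3, which stood apart. The 10 genes together took 0.199% to 0.255% of counts in Con, 0.119% to 0.22% in EM, 0.334% to 0.381% in PBS and 0.314% to 0.341% in EET. The labelled cell type was checked with 10 granulosa markers, whose summed level was 11300 to 15200 CPM (counts scaled to library size, TMM-normalised over the 16 libraries) in Con, 6590 to 20500 in EM and 5120 to 6310 in the cultured groups. In culture Inha, an inhibin subunit, was still at 2840 ± 274 CPM (SD, n = 3) in PBS, but Cyp19a1, the estrogen-making aromatase, was at 0.169 ± 0.19 CPM against 289 ± 192 (SD, n = 5) in EM. Fresh libraries also held markers of other cells: 8 stromal genes summed to 605 to 1650 CPM, 10 endothelial genes to 105 to 228 CPM and 8 leukocyte genes to 171 to 648 CPM. In these bulk samples fewer cells of a type and less RNA per cell cannot be told apart.

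In Con mGCs the order of transcript levels per length was led by Lamb2, at 60.9 ± 7.51 RPKM (SD, n = 5; CPM divided by the length in kilobases of the longest reference transcript), and ended with Lama2, at 2.95 ± 0.403 RPKM. Lamb1 stood at 45.3 RPKM, Lama1 at 40.9, Hspg2 at 33.8, Lamc1 at 31.5, Lama4 at 21.6, Nid1 at 17.4, Nid2 at 8.42 and Lama5 at 4.75 RPKM. Among neighbours in this order the libraries were fully separate only for Nid1 over Nid2, Nid2 over Lama5 and Lama5 over Lama2. The upper part of the order depends on the transcript length used: with the length of all exons joined, Lamb1 fell from rank 2 to rank 5, at 26.4 RPKM, and Lama4 to 10.8 RPKM. EM mGCs had a like order, again from Lamb2 at 54.6 ± 11.8 RPKM to Lama2 at 2.06 ± 0.286 RPKM (SD, n = 5). In PBS the order was led by Hspg2 at 172.5 ± 22.8 RPKM (SD, n = 3), with Lamb2 next at 85.1 RPKM, and Lama2 was last at 0.0805 ± 0.0117 RPKM. All neighbours there were separate except Nid1 and Nid2.

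**Figure D1:**
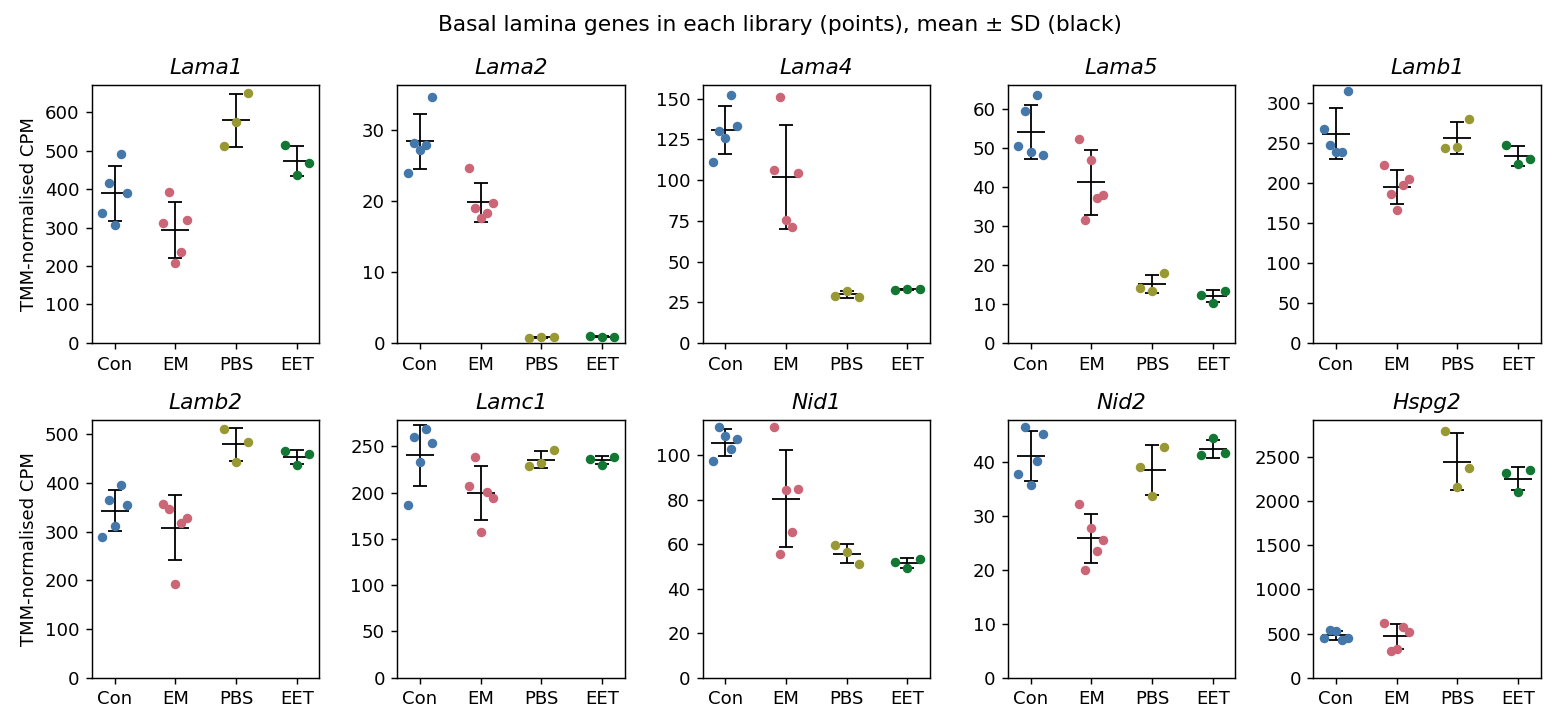
Level of each gene (vertical axis, TMM-normalised CPM from 0, scale differs by panel) in every library of the Con, EM, PBS and EET groups; points are libraries, black lines the mean and SD. Lamb1 and Nid2 have no EM library within the Con range, Lama2 falls from 19.8 CPM in EM to 0.774 in PBS, and Hspg2 rises from 469 to 2447 CPM.

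The mean makeup of the alpha chains was alike in Con and EM and different in culture, given here as shares of the summed RPKM of the 5 alpha chain genes, without a test. Lama1, the chain of early embryonic basement membranes, made up 57.5% ± 2.6 (SD, n = 5) in Con, 57.3% ± 2.24 (n = 5) in EM, 90.4% ± 0.896 (n = 3) in PBS and 88.2% ± 0.745 (n = 3) in EET. Lama4, a chain of vessel walls, made up 30.7% in Con, 30.9% in EM, 7.42% in PBS and 9.71% in EET. Lama5, the broadest alpha chain of adult epithelia, held 6.76% in Con, 7.1% in EM and 1.97% in PBS. Its share varied more in EM, from 3.85% in EM-2 to 10.13% in EM-3, than in Con, from 5.9% to 7.25%. Lama2, the chain of muscle basal lamina, held 4.21% in Con, 3.96% in EM and 0.12% in PBS. With the length of all exons joined, the share of Lama4 was lower, at 18.8% in Con, 18.9% in EM, 3.92% in PBS and 5.19% in EET, that of Lama1 was 69% in Con and 93.9% in PBS, and that of Lama2 in PBS 0.0746%. Lama3, which is outside the 10 genes, stayed under 1% in every group. Among gamma chains Lamc1, the common partner of most laminins, held 70.8% ± 4.93 in Con, 71.1% ± 7.51 in EM and 95.2% ± 0.902 in PBS, and nearly all of the rest in fresh cells was Lamc3, at 27.4% in Con, 27.1% in EM and 0.733% in PBS. Lamb2 exceeded Lamb1 in each group, with a share of the beta chains of 57.2% ± 4.32 in Con, 61.2% ± 4.2 in EM, 65.7% ± 2.23 in PBS and 66.5% ± 0.668 in EET. Nid1 was 2.08 times Nid2 per length in Con, 2.47 times in EM, 1.18 times in PBS and 0.977 times in EET. Perlecan transcripts per gamma 1 chain transcript were 1.09 ± 0.173 in Con, 1.28 ± 0.379 in EM, 5.59 ± 0.852 in PBS and 5.15 ± 0.207 in EET.

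**Figure D2:**
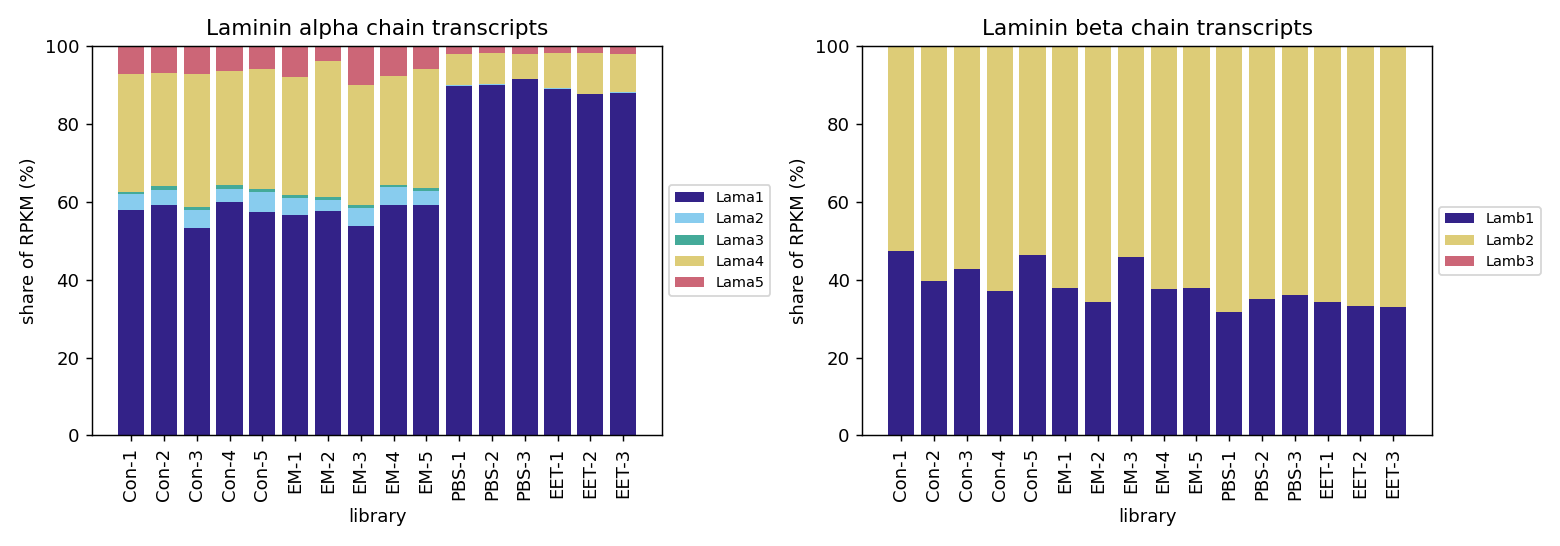
Share of the summed RPKM (vertical axis, %) taken by each laminin alpha chain gene (left) and beta chain gene (right) in the 16 libraries (horizontal axis). Lama1 lies near 57% in fresh libraries and near 90% in cultured ones, and Lamb2 exceeds Lamb1 in the mean of every group.

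The first comparison asked how mGCs of mice with ectopic endometrium differ from those of sham mice. All 10 genes had a lower fitted level in EM than in Con, against 51.8% of all 17229 genes tested, but none passed edgeR's quasi-likelihood test at an adjusted p of 0.05 (0 of 10). No gene at all did (0 of 17229, 0.0%), while 1626 had an unadjusted p under that value. Of the 10 genes 6 were lower at that unadjusted p (Nid2, Lama2, Lamb1, Lama1, Lama5 and Nid1), against 4.22% of all genes. The EM libraries lay below all Con libraries for Lamb1 and Nid2, against 0.778% of all genes. The median log2 fold change of the 10 genes was -0.403, and that of all genes -0.0109. With DESeq2 on the same counts 3 of the 10 genes, Nid2, Lama2 and Lamb1, were called lower, against 0.29% of all genes, with adjusted p of 0.00469, 0.0342 and 0.04. The 10 genes and the lists used below were chosen with earlier results of these data known. Their counts beside the shares of all genes are therefore description and not a test of the set.

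Nid2, the lower expressed nidogen, showed the largest difference. Its level was 37.8, 46.5, 35.7, 40.3 and 45.1 CPM in Con-1 to Con-5 and 32.3, 20.1, 27.8, 23.5 and 25.5 CPM in EM-1 to EM-5. The groups did not overlap, and the log2 fold change was -0.68 ± 0.133 (SE; edgeR adjusted p = 0.285; two-sided exact permutation p = 0.00794, the smallest that 5 against 5 allows). Nid2 shares 437 bp at its end with Rtraf, a gene on the other strand with a mean of 1020 counts in fresh libraries, and since the strand setting of the counting is not given, its value is less certain than that of the other genes. For Nid1 the libraries read 97.6, 112.9, 108.6, 102.8 and 107.3 CPM in Con and 112.7, 55.5, 84.5, 65.4 and 85 CPM in EM. Only EM-1 reached the Con range, and the log2 fold change was -0.40 ± 0.159 (SE, edgeR adjusted p = 0.503).

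Lamb1, the beta chain of embryonic and many adult laminins, read 267.3, 247.6, 239.5, 239.3 and 315.5 CPM in Con and 223.1, 186, 165.8, 197.6 and 204.8 CPM in EM. Every EM library was below every Con library, with a log2 fold change of -0.43 ± 0.114 (SE, edgeR adjusted p = 0.376; exact permutation p = 0.00794). Lamb2 read 342.6 ± 42.3 CPM in Con and 307.5 ± 66.6 CPM in EM (SD, n = 5 each), with a log2 fold change of -0.16 and a 95% interval from -0.52 to 0.20. Lamc1 went from 240.4 ± 32.8 to 199.7 ± 28.8 CPM, a log2 fold change of -0.28 with an interval from -0.57 to 0.02. Both groups overlapped for these 2 chains.

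Lama2 was at 24, 28.2, 27.1, 27.9 and 34.6 CPM in Con and at 24.5, 18.9, 17.6, 18.3 and 19.6 CPM in EM. All EM libraries but EM-1 were below the Con range, and the log2 fold change was -0.52 ± 0.128 (SE, edgeR adjusted p = 0.348; exact permutation p = 0.0159). For Lama5 the same held of 4 EM libraries, with means of 54.1 ± 6.93 and 41.1 ± 8.39 CPM (SD, n = 5 each) and a log2 fold change of -0.40 ± 0.143 (SE, edgeR adjusted p = 0.465). Lama1 went from 389.3 ± 71.9 to 294.3 ± 73 CPM, a log2 fold change of -0.41 ± 0.184 (SE, edgeR adjusted p = 0.52). Lama4 went from 130.7 ± 14.7 to 101.8 ± 32 CPM, the log2 fold change being -0.37 with an interval from -0.77 to 0.03. Hspg2 had almost the same mean in both groups, 478.9 ± 49.5 and 468.9 ± 144.3 CPM, with an interval of the log2 fold change from -0.47 to 0.39. For the other genes the exact permutation p was 0.0397 (Nid1), 0.0476 (Lama5), 0.0794 (Lama1 and Lamc1), 0.0952 (Lama4), 0.381 (Lamb2) and 0.881 (Hspg2). These permutation p-values were not adjusted for the number of genes. Where groups do not overlap, as for Nid2 and Lamb1, this p always takes its smallest value.

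**Figure D3:**
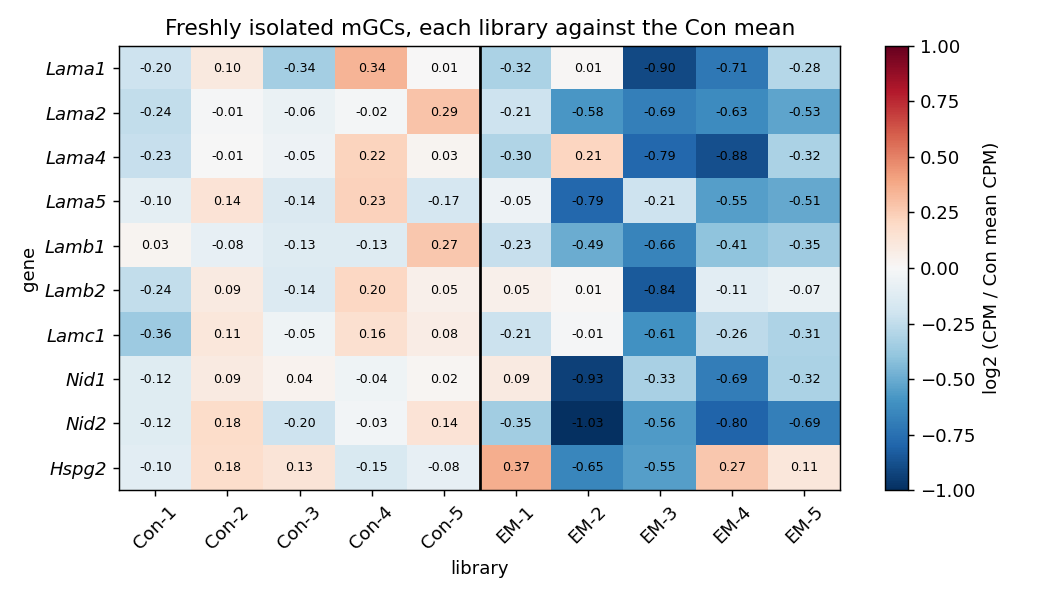
Level of each gene (rows) in each of the 10 fresh libraries (columns) as log2 of its CPM over the mean CPM of the Con group; blue is below and red above the Con mean, and the black line parts Con from EM. Medians over the 10 genes run from -0.633 in EM-3 to -0.211 in EM-1 among EM libraries and from -0.163 to 0.0967 among Con libraries, and Hspg2 is above the Con mean in 3 EM libraries and below it in EM-2 and EM-3.

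By coefficient of variation (SD over the mean) the EM libraries differed among themselves more than the Con libraries did for 9 of the 10 genes. The difference was slight for Lama2 (13.9% against 13.7%) and Lamc1 (14.4% against 13.6%). The SD itself was smaller in EM than in Con for Lama2, Lamb1, Lamc1 and Nid2. How many of all genes spread more in EM was not counted, so this is no trait of the 10 genes. The coefficient of variation was 27.2% in EM against 5.54% in Con for Nid1, 30.8% against 10.3% for Hspg2 and 31.4% against 11.3% for Lama4. EM-1 had the highest EM value of 7 genes (Lama2, Lama5, Lamb1, Lamb2, Nid1, Nid2 and Hspg2). EM-2 had the highest EM value of the other 3 (Lama1, Lama4 and Lamc1) and the lowest of 4 (Lama5, Nid1, Nid2 and Hspg2). EM-3, the library with the high mitochondrial share, had the lowest value of 5 (Lama1, Lama2, Lamb1, Lamb2 and Lamc1). Some marker sums moved with this split and others did not. EM-1 held the most stromal and endothelial marker transcripts of the EM group, 1410 and 192 CPM, and EM-2 the fewest, 605 and 105 CPM, and EM-2 also held the most granulosa marker transcripts, 20500 CPM. EM-1 had the lowest theca sum of the group, 543 CPM, and EM-3 the highest theca and smooth muscle sums, 874 and 281 CPM. In Con the stromal sum was 1500 to 1650 CPM, so that all 5 EM libraries lay below it, and 4 of its 8 genes were lower at an unadjusted p under 0.05. Most of that sum was Col1a1, Col1a2 and Col3a1, at 363, 383 and 600 CPM in Con and 187, 257 and 403 in EM. Of the 8 stromal genes 7 had a fitted log2 fold change below 0, while Dcn went from 95 to 106 CPM. Theca markers summed to 825 to 1000 CPM in Con and 543 to 874 in EM, mostly through Aldh1a1, at 634 and 432 CPM. Of the 8 theca genes 6 were below 0, but Cyp17a1 went from 181 to 207 CPM and Insl3 from 2.12 to 3.36. Endothelial markers summed to 169 to 228 CPM in Con and 105 to 192 in EM, smooth muscle markers to 219 to 359 and 109 to 281, and leukocyte markers to 171 to 352 and 260 to 648. Oocyte markers summed to 329 to 728 CPM in Con and 98.9 to 755 in EM, surface epithelial markers to 136 to 198 and 66.3 to 215, and red blood cell markers to 3460 to 5460 and 2440 to 16100. The part of these cells in the lower basal lamina transcripts was not tested. Without EM-3, 9 of the 10 genes were lower and 5 at an unadjusted p under 0.05, Hspg2 then being at 0.07.

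Other genes of the same sheet and its receptors were followed through lists. None of them was called in EM (0 of 53 tested), with 13 at an unadjusted p under 0.05 by the same edgeR test, 11 lower and 2 higher. Of all genes 0.0% were called, 9.44% had an unadjusted p under 0.05 and 4.22% were lower at it. All 4 laminin chains outside the 10 had a fitted log2 fold change below 0, and the smallest p was that of Lamb3, a chain of epithelial anchoring laminin, at -0.82 ± 0.415 (SE, edgeR adjusted p = 0.547). Of 24 other basement membrane genes 17 were below 0, where 51.8% of all genes were, and the smallest p was that of Col4a4, a collagen IV chain, at 14.4 ± 2.31 CPM in Con and 7.11 ± 1.6 CPM in EM (SD, n = 5 each), with a log2 fold change of -1.02 ± 0.179 (SE, edgeR adjusted p = 0.207) and no overlap. Of 14 laminin receptors 6 were below 0, and the smallest p was that of Itgb4, the integrin beta chain of hemidesmosomes, at -0.77 ± 0.185 (SE, adjusted p = 0.348). Among 11 enzymes of the dystroglycan sugar chain none had an unadjusted p under 0.05.

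The second experiment started from mGCs of the same model, so PBS can be set beside EM, but culture, serum and the experiment itself cannot be told apart in this comparison, which shares its EM libraries with the one above. Of the 10 genes 9 were called, 5 higher in PBS (31.1% of 17301 genes were) and 4 lower (37.9% of genes were). The share called is thus read against a background where most genes moved, and the sizes of the differences tell more than their number. Hspg2 rose and Lama2 fell by far the most, and Lama4 and Lama5 fell as well.

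Hspg2 was at 305.5 to 616.9 CPM in EM, with a median of 517.4, and at 2799, 2163 and 2379 CPM in PBS. The log2 fold change was 2.36 ± 0.251 (SE, edgeR adjusted p = 2.56e-05), a 5.14-fold rise with wide separation. Among the alpha chains Lama1 rose, from 294.3 ± 73 CPM to 512.8, 574.5 and 649.3 CPM, a log2 fold change of 0.96 (edgeR adjusted p = 0.00132). Lama2 fell from 17.6 to 24.5 CPM in EM to 0.655, 0.878 and 0.791 CPM in PBS, where it rested on 12 to 20 counts a library. Its log2 fold change was -4.68 ± 0.208 (SE, edgeR adjusted p = 1.87e-07), which is 25.6-fold. Lama4 fell from 71.1 to 151.3 CPM in EM to 29, 32.2 and 28.5 CPM in PBS, 3.45-fold (edgeR adjusted p = 8.74e-05), and Lama5 from 31.4 to 52.4 CPM to 14.1, 13.3 and 17.9 CPM, 2.77-fold (adjusted p = 9.26e-05). The ranges of these 3 chains did not overlap between the groups, nor did those of Hspg2, Lama1, Lamb1, Lamb2 and Nid2. The share of all genes without overlap in this comparison is not given here, so the separation is description only.

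The remaining changes were smaller. Lamb2 rose by a log2 fold change of 0.62 (edgeR adjusted p = 0.0117), Nid2 by 0.55 (0.01) and Lamb1 by 0.37 (0.0158), and Nid1 fell, at -0.55 (0.0355). Lamc1 had a log2 fold change of 0.22 with an interval from -0.06 to 0.50 and was not called. Upper-quartile scaling moved the median of all genes by -0.251, and with it Lamb2, Nid2 and Lamb1 were no longer called and Lamc1 stood at -0.04, while Hspg2, Lama1, Lama2, Lama4, Lama5 and Nid1 kept their calls. With at least 10 counts in every library 7 of the 10 genes were called, without Lamb2 (adjusted p = 0.0549) and Lamb1 (0.141), and with protein-coding genes only 8 were, without Lamb1 (0.0587). The call of Nid1 was lost without EM-1, EM-3, EM-5 or any of the 3 PBS libraries, and those of Nid2 and Lamb1 without PBS-3.

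**Figure D4:**
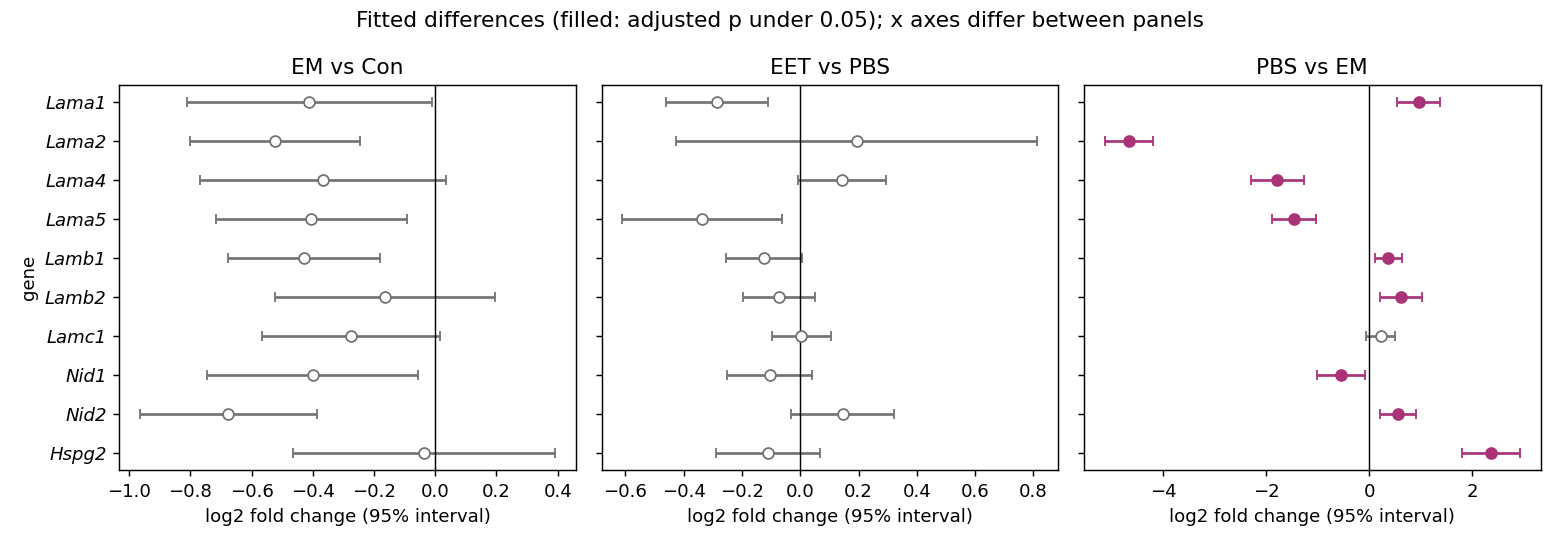
Fitted log2 fold change (horizontal axis, scale differs by panel) of each gene for EM against Con, EET against PBS and PBS against EM; bars are 95% intervals and filled points passed an adjusted p of 0.05. Filled points appear only for PBS against EM, where Lama2 lies at -4.68 and Hspg2 at 2.36.

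Markers of granulosa cells and of most other cell types were lower in the cultured libraries than in EM. Of the 10 granulosa genes 9 were called lower in PBS, where 37.9% of all genes were, and the median log2 fold change of the 10 was -2.2. Fshr went from 103 ± 49.4 CPM in EM (SD, n = 5) to 5.16 ± 0.415 CPM in PBS (SD, n = 3), and Nr5a2 from 791 to 106 CPM. Inhba stood at 2220 CPM in both groups, and with Inha, at 2840 CPM, it made up most of the granulosa sum in PBS. Endothelial markers summed to 7.74 to 10.3 CPM in PBS, with Cldn5 at 0 in every library, leukocyte markers to 15.1 to 18.1 CPM, with S100a8 and S100a9 at 0, and stromal markers to 255 to 336 CPM, of which Col1a1 alone held 233 ± 48.7 CPM (SD, n = 3) against 187 ± 63.1 CPM in EM (SD, n = 5). Surface epithelial markers summed to 3.91 to 5.18 CPM, oocyte markers to 1.15 to 1.36 CPM and red blood cell markers to 0.208 to 0.219 CPM. The sums of 2 lists were higher than in EM, each mostly through a single gene: the theca list, at 3610 to 4340 CPM, held 3890 ± 368 CPM of Aldh1a1 (SD, n = 3), and the smooth muscle list, at 582 to 781 CPM, held 552 to 747 CPM of Acta2. The part of these sums in the fall of Lama2, Lama4 and Lama5 was not tested.

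The first bases of Hspg2 and Lama2 are shown because these genes moved farthest and in opposite directions. Each run spans 250 bases before to 50 bases after the annotated start in RefSeq on GRCm38.p6, where 6 of the 10 genes matched the table (Lama2, Lama5, Lamb1, Lamb2, Nid1 and Hspg2). Capitals mark the GC box GGGCGG on either strand. The first lies at chr4:137468553-137468852 on the plus strand and the second at chr10:27616893-27617192 on the minus strand.
Hspg2 promoter: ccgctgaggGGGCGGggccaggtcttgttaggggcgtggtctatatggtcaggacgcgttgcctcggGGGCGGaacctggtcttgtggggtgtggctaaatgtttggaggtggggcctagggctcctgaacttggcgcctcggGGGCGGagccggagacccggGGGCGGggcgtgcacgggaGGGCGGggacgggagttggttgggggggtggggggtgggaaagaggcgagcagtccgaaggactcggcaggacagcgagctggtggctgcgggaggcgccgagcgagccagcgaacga
Lama2 promoter: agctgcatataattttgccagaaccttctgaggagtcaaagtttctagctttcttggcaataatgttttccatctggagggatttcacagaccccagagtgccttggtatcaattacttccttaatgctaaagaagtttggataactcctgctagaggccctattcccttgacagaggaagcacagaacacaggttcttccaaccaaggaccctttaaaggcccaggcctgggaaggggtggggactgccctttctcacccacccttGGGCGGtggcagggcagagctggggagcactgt
Hspg2 holds 5 GC boxes and 27 CpG dinucleotides at a GC content of 70.3%, and Lama2 holds 1 GC box and 1 CpG at 50.3%. Of all 32851 promoters of this length 35.7% hold a GC box, and the medians are 7 CpG and 52.7% GC. Lama5, which fell in culture as Lama2 did, holds 24 CpG and 4 GC boxes. TATAAA, searched on both strands, was in none of the 6 windows and in 13.6% of all promoters.

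In PBS against EM the partners of these proteins also differed. Of the other laminin chains Lamc3, the gamma chain that in fresh cells came next to Lamc1, fell from 60.6 ± 27.9 CPM (SD, n = 5) to 1.39 ± 0.14 CPM (SD, n = 3), the log2 fold change being -5.46 ± 0.397 (SE, 44.1-fold; edgeR adjusted p = 2.59e-06). Lama3 fell too, at -3.13. Of 24 other basement membrane genes 12 rose and 8 fell, where 31.1% of all genes rose and 37.9% fell. Frem2, of the Fras1 complex, rose at 5.23 and Tinagl1, a matricellular glycoprotein, at 4.70, whereas the calcium-binding Smoc2 fell at -7.53 and Egflam, also named pikachurin and a ligand of dystroglycan, at -5.94 on the log2 scale. Of 14 receptors 6 rose and 3 fell, against the same shares of all genes. Dag1, dystroglycan itself, rose from 473.2 ± 62.1 CPM to 2955 ± 134.7 CPM, a log2 fold change of 2.62 ± 0.15 (SE), and Sdc4, a heparan sulfate receptor, at 2.04, while the collagen and laminin receptor chains Itga2 and Itga1 fell at -0.87 and -0.48. Of 11 enzymes of the dystroglycan sugar chain 7 rose and 1 fell, again against 31.1% and 37.9%. The enzyme that fell was Pomt2, at -0.40.

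The third comparison asked what 14,15-EET changed in cultured mGCs. None of the 10 genes was called (0 of 10) by edgeR's quasi-likelihood test, where 1.22% of 15050 genes were (184 genes), and 2 were lower at an unadjusted p under 0.05, against 6.38% of genes. This comparison shares its PBS libraries with the one before. Lama1 read 512.8, 574.5 and 649.3 CPM in PBS and 514.7, 436 and 469.1 CPM in EET. EET-1 lay within the PBS range, and the log2 fold change was -0.29 ± 0.0802 (SE, edgeR adjusted p = 0.132). DESeq2 called it lower (1 of the 10 genes, against 1.28% of all genes, adjusted p = 0.0208), as did edgeR without PBS-1 (adjusted p = 0.00766). Lama5 read 14.1, 13.3 and 17.9 CPM in PBS and 12.3, 10.3 and 13.3 CPM in EET, with a log2 fold change of -0.34 ± 0.126 (SE, edgeR adjusted p = 0.285).

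The groups were separate for 2 genes, Lama5 in the lower direction, against 9.17% of genes, and Lama4 in the higher direction, against 8.48%. For Lama5 the gap was very small, with 13.28 CPM in EET-3 and 13.34 CPM in PBS-2. Lama4 read 29, 32.2 and 28.5 CPM in PBS and 32.8, 33.2 and 32.8 CPM in EET, a log2 fold change of 0.14 with an interval from -0.01 to 0.30. For both the exact permutation p was 0.1, the smallest that 3 against 3 allows. Lama2, at 0.774 ± 0.113 and 0.887 ± 0.0834 CPM (SD, n = 3 each), was measured too thinly to say more than that its interval ran from -0.43 to 0.81. The remaining genes were bounded more closely. Lamc1 had a log2 fold change of 0.00 with an interval from -0.10 to 0.10, Lamb2 -0.07 from -0.20 to 0.05, Lamb1 -0.12 from -0.26 to 0.01, and Hspg2 -0.11 from -0.29 to 0.07. The nidogens lay on either side of 0, Nid1 at -0.11 from -0.25 to 0.04 and Nid2 at 0.15 from -0.03 to 0.32.

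The lists around them were chosen with earlier results of these data known, so their counts are description and not a test of a set. Of the other basement membrane genes 5 of 24 differed between EET and PBS, called in either direction, where 1.22% of all genes were called. Of these 2 rose: Col18a1, the collagen that carries endostatin, from 6.36 ± 0.428 to 10.6 ± 0.629 CPM (SD, n = 3 each; log2 fold change 0.74 ± 0.11, SE, edgeR adjusted p = 0.00647), and Smoc1, at 0.35 (adjusted p = 0.041). Another 3 fell: Frem2 at -0.80 (adjusted p = 0.00181), Col4a3 at -0.77 (0.00362) and Col4a4 at -0.66 (0.0109). Col4a3 and Col4a4 encode chains of 1 collagen IV network and went from 28.8 ± 3.55 to 16.9 ± 1.78 CPM and from 31 ± 2.63 to 19.6 ± 2.99 CPM. Of 14 receptors 1 fell, against the same 1.22% of all genes called, Itga3, the alpha chain of a laminin-binding integrin, at -0.26 (adjusted p = 0.0304). None of the 3 other laminin chains tested was called (0 of 3), with no unadjusted p under 0.05, and the gene with the smallest p was Lama3, at a log2 fold change of 0.22. Among the 11 dystroglycan enzymes none was called (0 of 11) and 1 had an unadjusted p under 0.05, Pomgnt2 at -0.16.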

How the data were processed

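RNA-seq of mGCs was processed for 16 libraries: Con (n = 5), EM (n = 5), PBS (n = 3) and EET (n = 3). The authors deposited raw counts per Ensembl gene, made with featureCounts from poly(A) libraries of a stranded kit. The submitters' processing notes name fastp, HISAT2, StringTie and GRCm39, without versions. The strand setting and the handling of shared reads are not given in the sources used here. No column was left unused (0 columns). Library totals were 14229123 to 29482826 counts, and sampling noise did not account for the differences within any group. Where nothing states separate cultures, p-values measure only the spread between these libraries.

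Counts were analysed with R 4.3.3 and edgeR 4.0.16. Genes were kept by filterByExpr, scaled by TMM and compared by the quasi-likelihood test with Benjamini-Hochberg adjustment, each comparison fitted on its own 2 groups, and calls were made at an adjusted p below 0.05. SEs are the log2 fold change over the root of the F statistic, and 95% intervals use the moderated degrees of freedom. CPM were scaled by TMM over the 16 libraries. RPKM used the longest GENCODE transcript on GRCm38, since the tables give no length. Single values were compared by two-sided exact permutation tests (Python 3.11.15, SciPy 1.17.1). The edgeR step was tested on simulated counts.

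The 10 genes and the lists were chosen with earlier results of these data known. Named from each list were the 2 called genes with the largest rise and the 2 with the largest fall, or else the gene with the smallest p. Col4a4 in EET against PBS, and the marker genes given with values, were named after their values were seen. Some genes that this rule names are not reported here. Alternatives were DESeq2 1.42.0, RLE and upper-quartile scaling, other filters, restriction to protein-coding genes, a replicate block, leaving out each library and, chosen after seeing the data, leaving out mitochondrial transcripts and the joined exon length. The methods describe paired cultures but do not say that equal numbers mark the pairs, so the main fit had no block. Deviations of same-numbered PBS and EET libraries correlated at 0.089, 0.178 and -0.0473. With so few libraries a group these values cannot decide whether equal numbers mark pairs.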

Additional observations from a re-analysis of the deposited data

Results flagged for a closer look

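Among 20 sets of a gene and a fresh group, 1 held a library far from the others: Lamb2 in the EM group, where EM-3 read 191 CPM and the next lowest library, EM-4, 318.1 CPM, against 355.5 CPM in the highest. Chance alone gives about 1 such case in 20 groups, and here 1 was found. EM-3 is also the library with 21.8% mitochondrial transcripts, and the part of that share in its low Lamb2 value was not tested. Without EM-3 the log2 fold change of Lamb2 between EM and Con was -0.0344.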

How the results depend on the processing

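Under DESeq2 the number of the 10 genes called became 3 for EM against Con (Nid2, Lama2 and Lamb1) and 1 for EET against PBS (Lama1). Without a filter, EET against PBS also gave 1 (Lama1). Leaving out 1 library in turn gave 0 calls each time for EM against Con, 0 to 1 for EET against PBS (1 without PBS-1) and 6 to 9 for PBS against EM. Genes near 0 changed sign: Hspg2 in EM against Con stood at 0.01 without Con-2, 0.0839 without EM-2 and 0.07 without EM-3, and ranged from -0.15 to 0.0839 over these fits. Lamc1 in EET against PBS stood at -0.0011 with upper-quartile scaling, -0.0158 without PBS-1, -0.0044 without PBS-2 and -0.01 without EET-3, and ranged from -0.0158 to 0.0300. In PBS against EM, Lamc1 stood at -0.0355 with upper-quartile scaling. The cause was not tested. With the joined exon length, Con levels became 1.73 RPKM for Lama2, 10.8 for Lama4, 26.4 for Lamb1 and 15.2 for Nid1.

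Counts over all genes moved more. For EM against Con edgeR called 0, DESeq2 114, edgeR without a filter 4, without Con-3 46 and without EM-1 1. For EET against PBS edgeR called 184, DESeq2 330, edgeR without a filter 662, and 48 to 436 genes when 1 library was left out. With the replicate block, 341 genes and 0 of the 10 were called in EET against PBS, with 4 of the 10 at an unadjusted p under 0.05 in place of 2. Leaving out mitochondrial transcripts left 0 of the 10 called in EM against Con. Depth limits mainly Lama2 in culture, with 12 to 25 counts a library.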
